A study of Rattus norvegicus with 89 samples.

Results

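The haemoglobin transcripts Hbb, Hba-a1, Hba-a2 and Hba-a3 and the transcript Alas2 were followed in rat kidney RNA across 15 groups of rats. The members were chosen by gene symbol: every probe set annotated to Hbb, to an Hba gene or to Alas2. This gave 5 genes on 6 of 31099 probe sets, among 14219 named genes in all. The symbols had been picked because these genes were low in one group of an earlier look at the same data, so their differences from saline are given as a description, with no test. A further 2 probe sets, annotated jointly to the beta globin genes Hbbl1 and Hbb-bs, are described beside them.

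The RNA came from homogenized apical pieces of both kidneys of 89 Sprague-Dawley Crl:CD(SD) rats of about 7-8 weeks, 44 males and 45 females, with 1 array per rat. Dosing was daily and lasted 1 or 5 days. The agents were Saline, Valproic acid, Doxorubicin, Cadmium, Cisplatin, Gentamycin and Tobramycin, and a Naive group was left undosed. The Saline group held 7 rats at day 1 and 5 at day 5, Doxorubicin at day 5 held 5, and each of the other 12 groups held 6. Gentamycin (gentamicin) and Tobramycin are aminoglycoside antibiotics, Cisplatin and Doxorubicin are cytotoxic cancer drugs, Cadmium is a toxic metal and Valproic acid is an antiepileptic drug. The study set known nephrotoxicants against control compounds, and the doses are not in the labels used here.

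Haemoglobin carries oxygen in red cells and is built from alpha and beta globin chains, each holding haem. ALAS2 is the red cell form of the enzyme that starts haem synthesis, and its relative ALAS1 serves other tissues. Red cells arise in the marrow and spleen of adult rats, and the youngest circulating ones, the reticulocytes, still hold globin and Alas2 messenger RNA. In a kidney extract these transcripts are therefore usually read as coming from blood within the organ. In such bulk RNA, fewer cells of a type and less RNA per cell cannot be told apart.

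The genes lie in 2 globin clusters and on the X chromosome of the GRCr8 rat assembly. Hbb spans chr1:167662310-167663721, with Hbb-bs at chr1:167630245-167631630 and Hbbl1 at chr1:167648859-167650235. The alpha genes Hba-a3 (chr10:15816099-15816943), Hba-a2 (chr10:15828291-15829138) and Hba-a1 (chr10:15841724-15842580) follow each other on chromosome 10. Alas2 spans chrX:22890650-22914046. Promoters of 3 globin members are shown because these genes were low in the same rats. Each is the 250 bases before the annotated start in RefSeq (GRCr8), all on the minus strand: chr1:167663722-167663971 for Hbb, chr10:15842581-15842830 for Hba-a1 and chr10:15816944-15817193 for Hba-a3. Capitals mark matches, on either strand, to 4 GATA factor motifs (AGATAA or AGATAG or TGATAA or TGATAG), to the KLF1 motif CCNCNCCCN, to CCAAT and to TATAAA.
Hbb: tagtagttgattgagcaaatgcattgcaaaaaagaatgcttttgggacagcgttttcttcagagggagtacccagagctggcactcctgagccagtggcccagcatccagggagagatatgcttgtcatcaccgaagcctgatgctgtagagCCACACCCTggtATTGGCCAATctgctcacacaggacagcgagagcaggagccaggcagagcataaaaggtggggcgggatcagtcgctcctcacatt
Hba-a1: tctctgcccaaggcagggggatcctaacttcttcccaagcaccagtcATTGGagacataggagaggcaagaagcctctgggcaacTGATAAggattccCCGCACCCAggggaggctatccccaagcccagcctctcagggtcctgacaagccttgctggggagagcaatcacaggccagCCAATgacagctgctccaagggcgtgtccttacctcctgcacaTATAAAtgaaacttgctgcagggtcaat
Hba-a3: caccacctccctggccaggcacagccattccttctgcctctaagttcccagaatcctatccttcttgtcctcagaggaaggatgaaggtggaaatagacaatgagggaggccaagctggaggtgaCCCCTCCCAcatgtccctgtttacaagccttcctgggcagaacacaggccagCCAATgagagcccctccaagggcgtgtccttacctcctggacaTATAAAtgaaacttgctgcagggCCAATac

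All 6 globin promoters searched, Hbb, the 3 alpha genes, Hbbl1 and Hbb-bs, held a CCAAT match, against 34.0% of 33469 promoters of the same length. A KLF1 match stood in 5 of the 6 (42.7% of all promoters), a TATAAA match in 5 (12.9%) and a GATA match in 4 (27.0%). In Hbb the KLF1 match began 98 bases before the start, and 2 CCAAT matches on opposite strands adjoined each other from base 86 to base 77 before it. In Hba-a1 the GATA match began 165 bases and the TATAAA match 28 bases before the start. The Hba-a1 and Hba-a2 windows were 96.4% identical base for base, and the array annotation gives these genes the same probe sets. The Hbbl1 and Hbb-bs windows also shared long runs of the same letters, shifted by a few bases. All GATA matches lay in these paired windows, at corresponding places within each pair. The 6 promoters are therefore not separate observations, and nothing is read from their counts beside the shares of all promoters. All motif matches given here are descriptions of the letters and no binding was measured. The RefSeq window for Alas2 began 4550 bases inside its annotated gene and was not searched.

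Kidney markers were bright in these samples. Of 10 tubule and podocyte markers 9 were measured, and their summed signal ran from 30165 to 40728 in Saline at day 5, with Umod, the thick limb gene, at a mean of 6325. Over all 89 rats the median scaled signal was 4572 for Hbb, 6070 for the joint probe set of Hba-a1 and Hba-a2, 432 for Hba-a3 and 127.7 for Alas2. Levels of different genes are not compared here, since each probe set has its own response. Here a scaled signal is the deposited intensity after each array was brought to a common mean, and differences are taken as log2(signal + 16). A signal of 33.2, the 40th percentile of all values, served as the limit under which a gene was treated as not above background.

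At day 5 of Doxorubicin, all members were nearly lost. Hbb, Hba-a1 with Hba-a2, Hba-a3, Alas2 and the further beta globins were the 5 lowest log2 differences of 11417 genes tested in that comparison. Whether a globin probe set also reads transcripts of related globin genes was not tested, so the globin differences may not be separate. In each of the 5 rats, each member lay under each of the 5 Saline rats. Such a gap downwards was seen in 64 genes (0.561%), and 35 genes (0.307%) were called lower by limma at an adjusted p under 0.05, of 46 called in all (0.403%). The members were chosen on this contrast, so nothing is read from those shares.

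Hbb, the adult beta chain, had signals of 4345, 4653, 4967, 5062 and 5664 in the Saline rats of day 5. In the Doxorubicin rats of that day it had 58.9, 64.8, 70.3, 73.0 and 74.5. The Doxorubicin values were narrowly spread and far from any other rat, as the next lowest Hbb signal of the 89 rats was 2149, in a Valproic acid rat of day 5. The means were 68.3 ± 6.43 (SD, n = 5) and 4938 ± 494 (SD, n = 5), a log2 difference of -5.87 (SE 0.18), or 58.4-fold lower on the log2(signal + 16) scale.

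The joint probe set of Hba-a1 and Hba-a2, the main alpha chain genes, had 5552, 5897, 6277, 6413 and 9415 in Saline at day 5. In Doxorubicin it had 80.6, 85.7, 97.4, 105.1 and 128.8. Even the highest Doxorubicin rat lay far below the lowest Saline rat. The log2 difference was -5.86 (SE 0.14), a 57.9-fold lower level. Another 2 probe sets of the same genes gave log2 differences of -6.32 (SE 0.15) and -5.75 (SE 0.23).

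Hba-a3, a further alpha globin gene, had 443, 461, 505, 509 and 751 in Saline and 12.1, 34.3, 36.1, 36.8 and 46.9 in Doxorubicin at day 5. The Doxorubicin rats sat at the background limit, with 1 of 5 under it. The log2 difference was -3.51 (SE 0.36), or 11.4-fold lower. The Saline mean was 534 ± 125 and the Doxorubicin mean 33.2 ± 12.8 (SD, n = 5 each).

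Alas2 had 126, 128.1, 163, 192 and 202 in Saline and 2.57, 6.19, 10.6, 13.2 and 14.9 in Doxorubicin at day 5. All 5 Doxorubicin rats were under the background limit, so the fall of this haem enzyme has only a bound, at least 4.80-fold. The fitted log2 difference of -2.79 (SE 0.24) depends on the added constant, and was -4.09 with a constant of 1 and -1.60 with one of 64. The same constant of 64 gave -2.62 for Hba-a3. The further beta globins Hbbl1 and Hbb-bs gave log2 differences of -6.23 (SE 0.28) and -5.31 (SE 0.26) on their 2 probe sets.

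**Figure D1:**
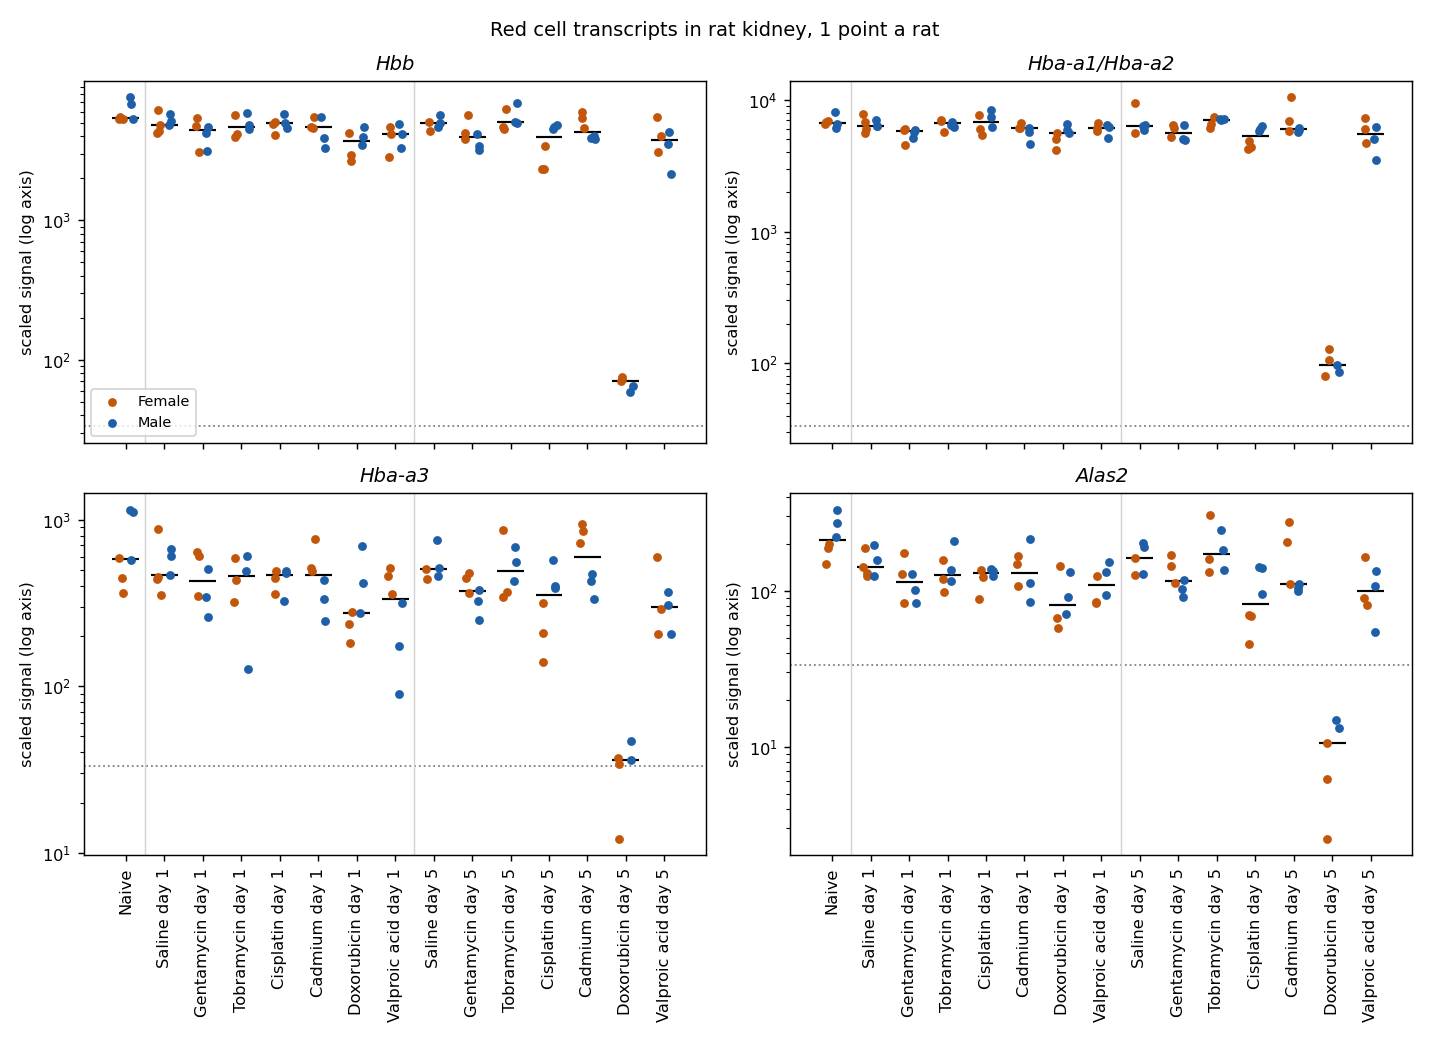
Scaled signal (log axis) of Hbb, Hba-a1 with Hba-a2, Hba-a3 and Alas2 in each of 89 rats by group, with females in orange, males in blue, a bar at each group's median and a dotted line at the background limit of 33.2. The 5 rats of Doxorubicin at day 5 lie below all other rats in each panel, and the other 14 groups overlap.

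After 1 day of Doxorubicin the members were lower than Saline by far less, and the groups overlapped. Hbb had 2663, 2926, 3472, 3985, 4253 and 4699 in the 6 Doxorubicin rats, against a lowest, median and highest of 4251, 4849 and 6233 in the 7 Saline rats. So 4 of 6 Doxorubicin rats lay under every Saline rat. The log2 difference was -0.48 (SE 0.16) for Hbb, -0.26 (SE 0.12) for Hba-a1 with Hba-a2, -0.72 (SE 0.31) for Hba-a3 and -0.67 (SE 0.21) for Alas2. In that comparison limma called 6 of 11417 genes (0.0526%), 4 higher (0.035%) and 2 lower (0.0175%). Alas2 had the 20th lowest of all log2 differences there.

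Naive rats had the highest mean log2 level of Hbb, Hba-a3 and Alas2, and Doxorubicin at day 5 the lowest of all members. For Hbb, Hba-a3 and Alas2 the 4 groups next above it were, in varying order, Cisplatin at day 5, Doxorubicin at day 1 and Valproic acid at both days. For Hba-a1 with Hba-a2 they were Cisplatin and Valproic acid at day 5 and Doxorubicin and Gentamycin at day 1. Alas2, for example, averaged 227 ± 65.4 (SD, n = 6) in Naive rats, 193 ± 68.4 (n = 6) in Tobramycin at day 5, 162 ± 34.9 (n = 5) in Saline at day 5 and 152 ± 30.1 (n = 7) in Saline at day 1. It averaged 105.3 ± 39.2 (n = 6) in Valproic acid at day 5, 93.6 ± 36.2 (n = 6) in Doxorubicin at day 1 and 93.3 ± 39.6 (n = 6) in Cisplatin at day 5. Neighbours in this order differed by less than the SD within groups, with the exception of Doxorubicin at day 5, which averaged 9.48 ± 5.07 (n = 5).

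Hbb showed the same range: 5997 ± 976 (SD, n = 6) in Naive rats, 5057 ± 714 (n = 7) and 4938 ± 494 (n = 5) in Saline at day 1 and day 5, and 3682 ± 1161 (n = 6) in Cisplatin at day 5. Outside Doxorubicin at day 5, the main probe set of Hba-a1 and Hba-a2 ran from 6897 ± 458 (n = 6) in Tobramycin at day 5 to 5270 ± 900 (n = 6) in Cisplatin at day 5. The dimmest of the 3 probe sets of these genes gave larger log2 differences from Saline at day 5: -0.67 in Cisplatin, -0.61 in Valproic acid and -0.48 in Gentamycin. Saline lay below Naive by a log2 difference of -0.50 (SE 0.21) for Alas2 at day 1 and -0.44 (SE 0.23) at day 5, with overlap at both days. Saline of day 5 and of day 1 differed by a log2 value of 0.06 (SE 0.22) for Alas2 and -0.03 (SE 0.17) for Hbb.

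Cisplatin at day 5 had log2 differences of -0.48 (SE 0.17) for Hbb, -0.34 (SE 0.13) for Hba-a1 with Hba-a2, -0.74 (SE 0.34) for Hba-a3 and -0.75 (SE 0.23) for Alas2. The Hbb signals were 2330, 2331 and 3411 in its females and 4528, 4634 and 4859 in its males. With 3 rats of each sex, the treatment difference between the sexes did not pass (limma adjusted p = 0.423 for Hbb). The Alas2 signals of this group were 45.6, 68.6 and 69.9 in females and 95.1, 139.6 and 140.96 in males. For Hbb the 3 females, and no male, lay under all 5 Saline rats of day 5. For Alas2 the 3 females and 1 of 3 males did.

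Valproic acid had log2 differences of -0.35 (SE 0.16) for Hbb and -0.41 (SE 0.21) for Alas2 at day 1, and -0.44 (SE 0.17) and -0.59 (SE 0.23) at day 5. Its Hba-a3 difference of -0.90 at day 1 was the lowest of any member outside Doxorubicin at day 5. Its rats of day 5 were widely spread, with Hbb from 2149 to 5550. Gentamycin gave -0.28 (SE 0.16) for Hbb at day 1 and -0.29 (SE 0.17) at day 5. The other aminoglycoside, Tobramycin, gave -0.07 (SE 0.16) and 0.13 (SE 0.17) for the same gene. Since the doses of these compounds are not in the labels, the values stand side by side and no comparison is made. Cadmium gave -0.15 (SE 0.16) for Hbb at day 1 and -0.11 (SE 0.17) at day 5, and Cisplatin at day 1 gave -0.04 (SE 0.16). Comparisons of one day share their Saline rats, so their differences are not independent of each other. Across the 12 comparisons, the groups overlapped in 11 for each member. The share of all genes lying wholly under Saline was 0.0963% for Doxorubicin at day 1, 0.035% for Gentamycin, 0.114% for Tobramycin, 0.035% for Cisplatin, 0.0526% for Cadmium and 0.114% for Valproic acid at that day. At day 5 it was 0.123% for Gentamycin, 0.114% for Tobramycin, 0.158% for Cisplatin, 0.0701% for Cadmium and 0.21% for Valproic acid.

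**Figure D2:**
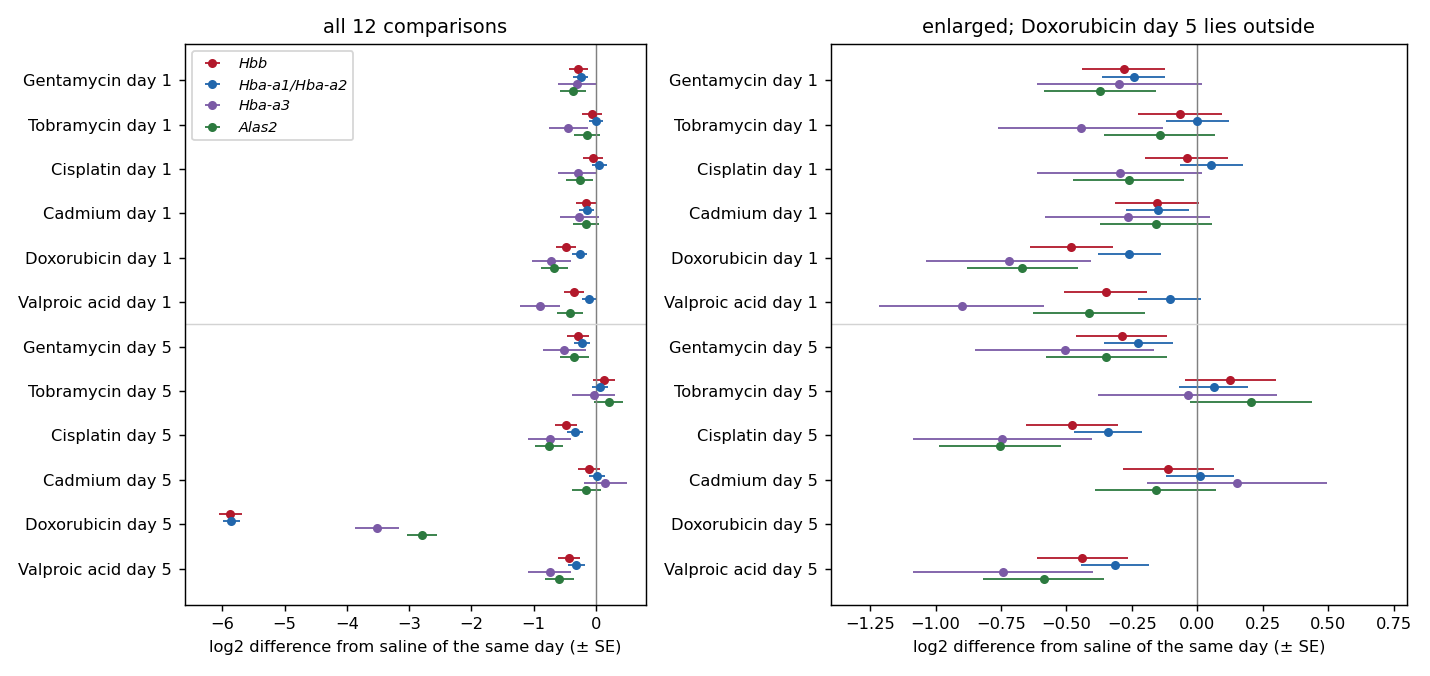
Log2 difference from Saline of the same day, with SE, for Hbb, Hba-a1 with Hba-a2, Hba-a3 and Alas2 in 12 comparisons; the right panel enlarges the range near 0. Outside Doxorubicin at day 5 the differences run from -0.90 to 0.21.

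The sex term of the limma fit called 7335 of 11417 genes (64.2%), 2726 higher in males (23.9%) and 4609 lower (40.4%). The share was 34.4% without scaling and 23.6% in the 18 control rats alone. No member was among them: the log2 difference, males minus females, was 0.03 (95% interval -0.09 to 0.15, adjusted p = 0.658) for Hbb and -0.02 (-0.11 to 0.08, adjusted p = 0.788) for Hba-a1 with Hba-a2. It was -0.05 (-0.29 to 0.19, adjusted p = 0.722) for Hba-a3 and 0.09 (-0.07 to 0.25, adjusted p = 0.327) for Alas2, all by limma with Benjamini-Hochberg adjustment over all genes. The rule had not used sex. Whether a treatment acted differently in males and females was tested with limma for 4 members in 12 comparisons. Of these 48 tests, 5 had an unadjusted p under 0.05 and 0 an adjusted one, the smallest adjusted p being 0.390. That is 10.4% of the members' tests under the unadjusted limit, against 7.46% over all genes in the same 12 comparisons, where 6 adjusted calls fell in 2 comparisons. The smallest unadjusted p belonged to Hba-a3 in Valproic acid at day 1. There the log2 difference was -1.65 in males and -0.18 in females (limma, difference -1.46, SE 0.53, adjusted p = 0.752). For Cisplatin at day 5 the log2 difference was -0.12 in males and -0.82 in females for Hbb (limma, difference 0.70, SE 0.31, adjusted p = 0.423). The other tests under the unadjusted limit were Hba-a1 with Hba-a2 in Cisplatin, and Alas2 and Hba-a3 in Cadmium, all at day 5. In Cadmium, Alas2 had -0.63 in males and 0.33 in females (limma adjusted p = 0.998). Hba-a3 had -0.44 and 0.80 there (limma adjusted p = 0.998). For Doxorubicin at day 5 the log2 difference was -6.03 in males and -5.73 in females for Hbb (limma, difference -0.30, SE 0.33, adjusted p = 0.730).

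Other genes of red cell making were read in the same comparison, in lists drawn up with earlier results of these data known. Over 14 lists, 3 genes passed limma at day 5 of Doxorubicin: 1 higher, where 0.0963% of all genes were called higher, and 2 lower, where 0.307% were called lower. At an unadjusted p under 0.05 there were 26, or 21.8% of the list genes tested, against 9.94% of all genes. At day 1 of Doxorubicin 0 passed limma, and 12 had an unadjusted p under 0.05, or 10.1% against 7.86% of all genes.

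Of 20 genes of reticulocyte maturation, iron import and red cell enzymes, 15 were tested and 1 fell at day 5, with 0.307% of all genes called lower. This was Alox15, the lipoxygenase that helps break down mitochondria in reticulocytes and is also found in other blood cells. Its mean was 8.31 ± 5.95 (SD, n = 5) in Doxorubicin and 39.6 ± 17.0 (SD, n = 5) in Saline, with all 5 Doxorubicin rats and 3 of 5 Saline rats under the background limit. The log2 difference was -1.17 (SE 0.25, limma adjusted p = 0.00593), and the bound on the fold was 1.13. The call was lost without Saline rat 1F106 (log2 difference -0.996, limma adjusted p = 0.0808). Ahsp, the chaperone of free alpha chains, had 8.06 ± 6.01 against 30.98 ± 14.01 (SD, n = 5 each) and did not pass (limma adjusted p = 0.145). All 5 Doxorubicin and 4 of 5 Saline rats were under the background limit, so no size is given for it. Tfrc, the transferrin receptor, which the kidney also makes, had a log2 difference of -0.24 (SE 0.16, limma adjusted p = 0.662). The list's median was -0.10, against 0.00 over all genes tested.

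The other enzymes of haem synthesis showed no change like that of Alas2. Bulk RNA does not show which cells gave their signal, so their level in red cells is not read here. Of 8 enzymes 7 were tested and 0 passed (2 at an unadjusted p under 0.05, limma), with a median log2 difference of -0.04. Alas1, the form of other tissues, had 661 ± 240 in Doxorubicin and 730 ± 234 in Saline (SD, n = 5 each; log2 difference -0.08, SE 0.19, limma adjusted p = 0.924). Fech, which places iron in haem, gave 0.08 (SE 0.09, limma adjusted p = 0.797), and Ppox, an earlier step, had the smallest adjusted p of the list (-0.27, SE 0.11, limma adjusted p = 0.324).

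Of 17 red cell membrane and skeleton genes 8 were tested and 0 passed (1 at an unadjusted p under 0.05, limma), with a median of 0.02. Epb41, the skeleton protein 4.1, came nearest with -0.27 (SE 0.13, limma adjusted p = 0.458). Slc4a1, the anion exchanger of red cells that the collecting duct also makes, had 872 ± 198 in Doxorubicin and 757 ± 267 in Saline (SD, n = 5 each; log2 difference 0.15, SE 0.20, limma adjusted p = 0.839). Of 10 erythroid transcription factors and the erythropoietin receptor, 4 were tested and 0 passed (1 at an unadjusted p under 0.05, limma); Lmo2, a partner of GATA factors, came nearest (-0.35, SE 0.12, limma adjusted p = 0.254). Gata1, Klf1 and Epb42 did not reach the background limit in enough arrays to be tested. Neither did Epo, the hormone of the kidney that drives red cell making. Of 7 erythropoietin and hypoxia genes tested 0 passed (3 at an unadjusted p under 0.05, limma). Ankrd37 came nearest (0.49, SE 0.19, limma adjusted p = 0.301). In haemoglobin and iron clearance 0 of 12 passed and 0 had an unadjusted p under 0.05 (limma); Hmox1, the haem-degrading enzyme, gave 0.42 (SE 0.43, limma adjusted p = 0.779), and Amn, part of the cubilin receptor of the tubule, -0.39 (SE 0.21, limma adjusted p = 0.528). None of the 4 embryonic and fetal globin genes on the array was above background in enough rats.

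**Figure D3:**
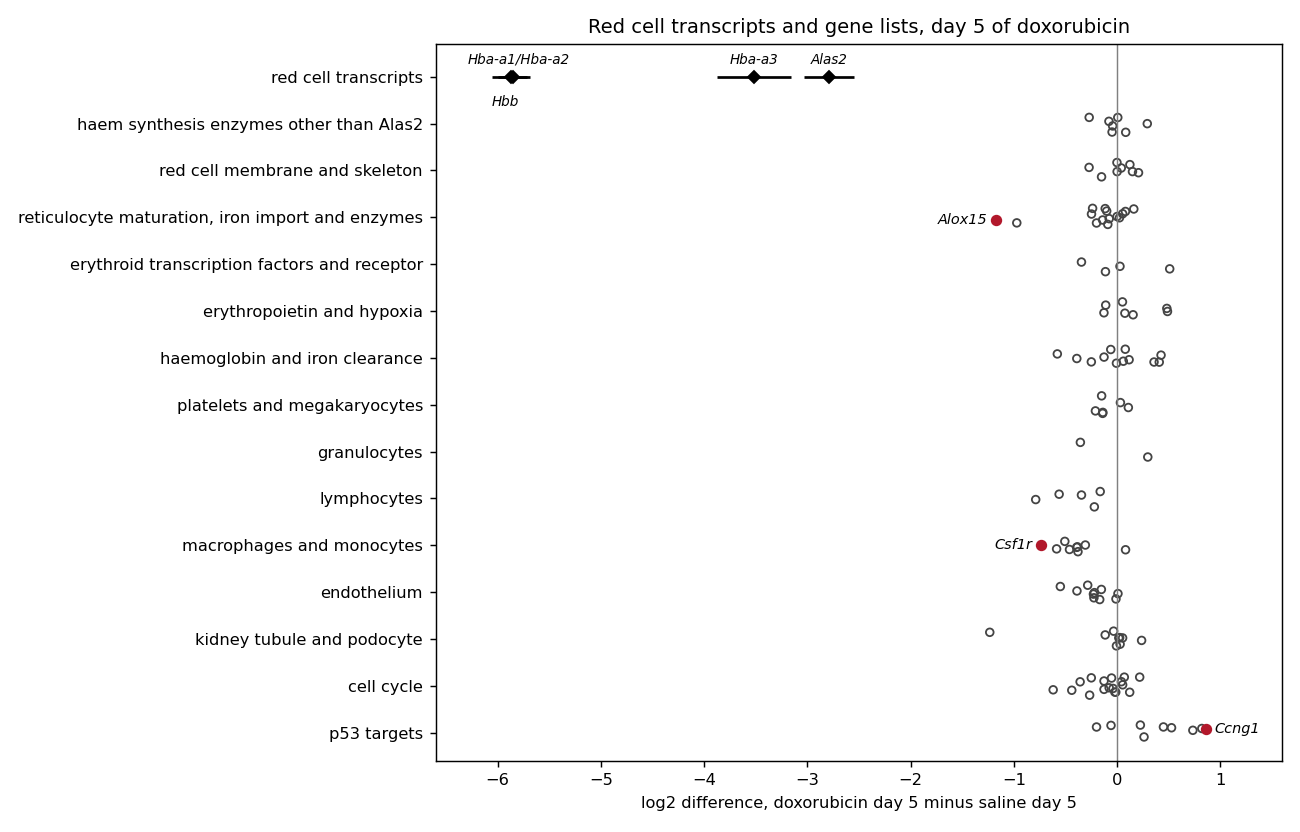
Log2 difference, Doxorubicin minus Saline at day 5, for the red cell transcripts (diamonds with SE) and for the tested genes of 14 lists (open circles, not passing limma; red, adjusted p under 0.05). The members lie between -5.87 and -2.79, while each list gene lies between -1.23 and 0.86.

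Markers of other blood cells and of the vessel wall were read beside the loss. Of 11 macrophage and monocyte markers 9 were tested, and 5 had an unadjusted p under 0.05 (limma), against 9.94% of all genes. Of these markers 1 fell, with 0.307% of all genes called lower. Csf1r, the receptor for their growth factor, had 115.2 ± 27.3 in Doxorubicin and 203 ± 41.8 in Saline (SD, n = 5 each; log2 difference -0.74, SE 0.15, limma adjusted p = 0.00408). That call was lost without Doxorubicin rat 6M50 (log2 difference -0.62, limma adjusted p = 0.0797) and in a fit on these 2 groups alone (log2 difference -0.78, limma adjusted p = 0.186). The list's median was -0.39, with 8 of 9 genes below 0, and its summed signal ran from 1769 to 3095 in Doxorubicin and from 2945 to 3656 in Saline. Of 13 lymphocyte markers 5 were tested, 0 passed and 5 lay below 0 (2 at an unadjusted p under 0.05, limma; median -0.35). Their summed signal ran from 115.3 to 170 against 161 to 268, and Ptprcap came nearest (limma adjusted p = 0.187), with all 5 Doxorubicin and 3 of 5 Saline rats under the background limit.

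Endothelial markers, which line the vessels that hold the blood, had a median of -0.22. Of 10 tested 0 passed (4 at an unadjusted p under 0.05, limma), and Eng came nearest (-0.55, SE 0.18, limma adjusted p = 0.183). Their summed signal ran from 3690 to 6307 against 4732 to 7010, so the groups overlapped. Of 6 platelet markers tested 0 passed and 0 had an unadjusted p under 0.05 (limma); their sums ran from 364 to 616 against 379 to 666, with Itga2b nearest (-0.15, SE 0.12, limma adjusted p = 0.698). Granulocyte markers were mostly under the limit, with 2 of 13 tested, 0 passing and 0 at an unadjusted p under 0.05 (limma); S100a9 came nearest (limma adjusted p = 0.719) and was under the limit in all 5 rats of both groups. Their sums ran from 57.4 to 557 against 52.0 to 110. The other gene tested was Lcn2, so the high sums rest on Lcn2 alone and are not read as granulocyte number. The part of these cells in the loss of the globins was not tested.

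Of 9 kidney markers tested 0 passed and 0 had an unadjusted p under 0.05 (limma; median 0.02). Slc5a2, a tubule glucose transporter, had the lowest value (-1.23, SE 0.68, limma adjusted p = 0.556). Cell cycle genes had 0 of 17 passing (1 at an unadjusted p under 0.05, limma), with Mki67 nearest (limma adjusted p = 0.332) and under the background limit in all 5 Doxorubicin rats and 1 of 5 Saline rats. Among 9 p53 targets tested the median was 0.45, and 5 had an unadjusted p under 0.05 (limma), against 9.94% of all genes. In this list 1 gene was called higher, where 0.0963% of all genes were: Ccng1, a cyclin induced by DNA damage. It had 1141 ± 274 against 621 ± 72.5 (SD, n = 5 each), a log2 difference of 0.86 (SE 0.13, limma adjusted p = 3.45e-06). Cdkn1a, the cell cycle inhibitor of the same response, gave 0.82 (SE 0.25, limma adjusted p = 0.141).

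After 1 day of Doxorubicin the nearest gene of each list missed the limit (limma). Fech gave -0.16 (SE 0.08, limma adjusted p = 0.616), Slc4a1 0.41 (SE 0.17, limma adjusted p = 0.534) and Mcm5, of the cell cycle list, 0.54 (SE 0.14, limma adjusted p = 0.226). The log2 difference was 0.51 for Blvra of haem clearance, 0.31 for Aqp2 of the kidney list, 0.35 for Cdkn1a, 0.35 for Myb, 0.19 for Plvap of the endothelium and 0.19 for Pf4 of platelets. It was -0.10 for Vegfa and 0.18 for Cd14 of macrophages. Cd3d of lymphocytes and S100a9 of granulocytes were under the background limit in every rat of both groups. Ahsp (limma adjusted p = 0.519) was under it in all 6 Doxorubicin and 5 of 7 Saline rats. At day 5 Ahsp was under it in all 6 rats of Cisplatin (limma adjusted p = 0.201) and of Valproic acid (limma adjusted p = 0.406).

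Within groups Hbb and Alas2 rose and fell together from rat to rat, a measure that the rule did not use, and other pairs were less close. For each rat, the log2 value minus the mean of its own group and sex was taken, over all 89 rats, and 3 pairs were tested by permutation (two-sided, 100000 resamples). The deviations were shuffled over all 89 rats although means of group and sex had been removed, which makes the permutation p-values too small. Hbb and Alas2 had Pearson r = 0.816 and Spearman rho = 0.796. Both had a permutation p of 1e-05, the smallest these resamples can give, and 1.5e-05 adjusted over the 3 pairs. The deviations had the same sign in 71 of 89 rats, and r was 0.798 without the 2 rats farthest from the median of Hbb. Without the Doxorubicin rats of day 5 it was 0.827, so the relation did not rest on them.

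Hbb and the joint probe set of Hba-a1 and Hba-a2 were related less closely (r = 0.538, rho = 0.531, permutation p 1e-05 for both, adjusted 1.5e-05; r = 0.478 without the 2 farthest rats). Hba-a1 with Hba-a2 and Alas2 were related weakly (r = 0.290 with permutation p 0.00559, rho = 0.313 with permutation p 0.0027; r = 0.347 without the 2 farthest rats). In control rats alone that pair did not pass (r = 0.241, permutation p 0.339). With Hba-a3 in place of Hba-a1 and Hba-a2, r was 0.535 with Hbb and 0.558 with Alas2. The dimmest of the 3 probe sets of these alpha genes gave r = 0.791 with Hbb and r = 0.670 with Alas2.

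The main alpha probe set also moved with a measure of RNA quality. Its deviations had r = 0.574 and rho = 0.411 with the GAPDH 3'/5' ratio, which grows when messenger RNA is shortened from its 5' end (permutation p 1e-05 and 9e-05; adjusted over 32 relations 0.000107 and 0.00096). The ratio ran from 1.11 to 2.99, with a median of 1.28, and exceeded 2 in 4 rats. Without those 4 rats the relation of Hba-a1 with Hba-a2 to Hbb had r = 0.677 and that to Alas2 had r = 0.418. For Hbb and Alas2 the relation to the same ratio had r = -0.098 (permutation p 0.36, adjusted 0.543) and r = -0.148 (permutation p 0.166, adjusted 0.379). The summed signals of endothelium (r = 0.451, adjusted permutation p 0.00016), platelets (r = 0.510, adjusted 0.000107) and kidney markers (r = 0.544, adjusted 0.000107) and, inversely, the array mean before scaling (r = -0.324, adjusted 0.0129) went with the main alpha probe set. The summed platelet markers went with Hbb (r = 0.302, rho = 0.276; permutation p 0.00361 and 0.00884, adjusted 0.0193 and 0.0466), with Alas2 (r = 0.276, adjusted permutation p 0.035) and with Hba-a3 (r = 0.268, adjusted permutation p 0.0384). Alas2 went inversely with the kidney markers (r = -0.293, adjusted permutation p 0.0237). The permutation p-values here are too small for the reason given above, so the weaker of these relations may not pass. For Hbb and the macrophage markers r was 0.092 (permutation p 0.391, adjusted 0.543). The part of these measures in the member values was not tested. In Doxorubicin and Saline of day 5 the GAPDH ratio had its highest values at 1.69 and 2.99.

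**Figure D4:**
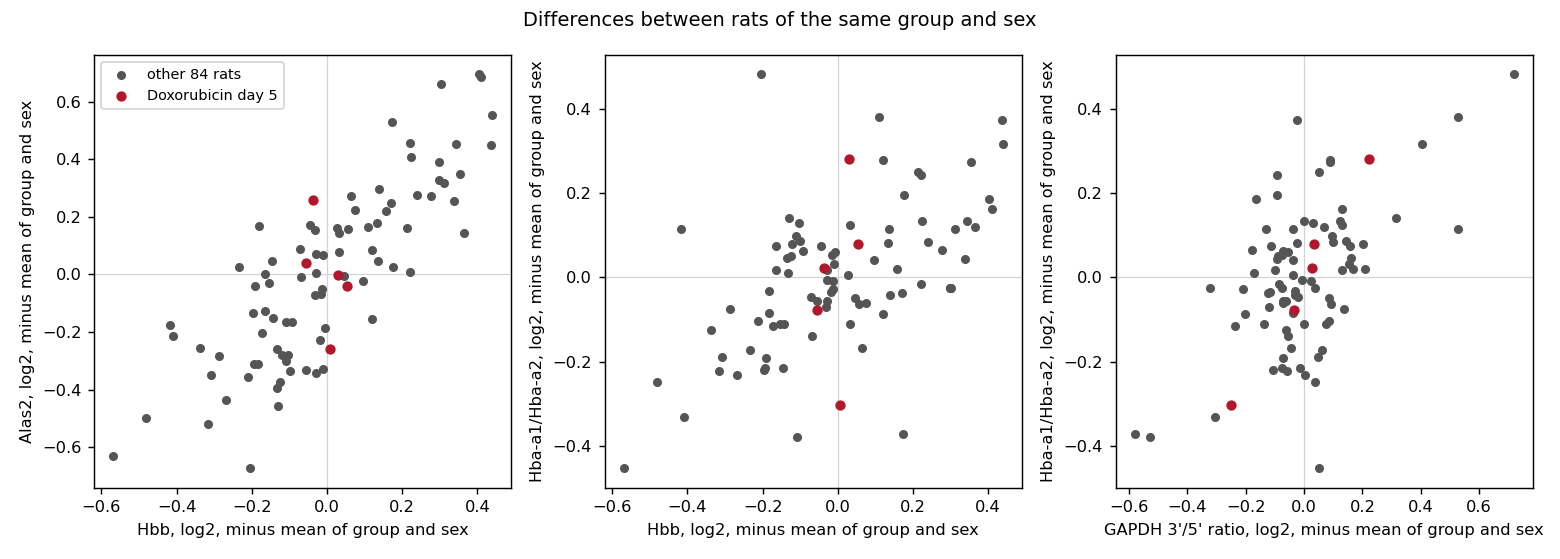
Log2 value minus the mean of the same group and sex in each of 89 rats, for Alas2 against Hbb, Hba-a1 with Hba-a2 against Hbb, and Hba-a1 with Hba-a2 against the GAPDH 3'/5' ratio, with the Doxorubicin rats of day 5 in red. The Alas2 and Hbb points lie along a line (r = 0.816) and the 4 rats of high GAPDH ratio lie to the right in the last panel.

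The genes whose pattern was most like the mean of the members were sought over all 89 arrays, after removing sex means. The highest Pearson r, given as a description over arrays that share the Doxorubicin group, belonged to Cdc25b, a cell cycle phosphatase (0.698), followed by Alox15 (0.666), Ighvl1 (0.627), Ccl6, a chemokine (0.593), and Mpeg1, a macrophage perforin (0.548). Fgd2 (0.541), Csf1r (0.511), Myo1f (0.505), Fcgr2b (0.495) and Cd74 (0.494) followed. Cdc25b had 34.9 ± 9.25 in Doxorubicin and 77.2 ± 21.2 in Saline of day 5 (SD, n = 5 each). Over the deviations within group and sex Cdc25b (0.698) and Alox15 (0.528) came first again, and the other 8 were not among the first 10. Over the 84 arrays without Doxorubicin at day 5, the 3 with r above 0.5 were Cdc25b (0.812), Alox15 (0.657) and Ahsp (0.574). Over the 15 group means, Ighvl1 (0.904), Tlr4 (0.893) and Csf1r (0.881) led, and 596 genes had r above 0.5.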

How the data were processed

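The deposited values are MAS5 signals per the submitters' processing notes: a linear intensity per probe set, made by the authors, with 31099 probe sets on 89 one-colour arrays. For MAS5, version and scaling were not given in the sources used here. Groups come from the sample titles; for 5 rats the treatment text is absent or differs. The members and lists were chosen with earlier results of these data known.

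Each array was scaled to a common 2% trimmed mean of 181 (91.5 to 352 before) and written as log2(signal + 16). Symbols were updated to RefSeq (GRCr8). Left out were 57 control probe sets, 9780 with no symbol listed and 436 with several, save those joining Hba-a1 with Hba-a2 or Hbbl1 with Hbb-bs. Each gene took its probe set of highest mean log2 value, and Hba-a3 was kept apart from the other alpha genes. A gene entered the tests when its signal passed the 40th percentile of all values on 5 or more arrays, which left 11417 of 14219.

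One limma 3.58.1 fit (lmFit, eBayes with trend and robust; R 4.3.3) on all 89 arrays held 15 groups and sex, with Benjamini-Hochberg adjustment and 0.05 as the limit. Where a whole group lay under 33.2, a fold is at least the brighter group's mean log2 signal over that limit. Genes named are all members, up to 5 genes passing the limit in each list or else the nearest one, 10 genes fixed by name, and the 10 most like the members. The fit and the permutation test were tested on simulated data, the permutation test without removal of group means. Arrays carry no counts, so their number limits the precision. The sources used here name no batch of rats or arrays. Alternatives are in the closing section.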

Additional observations from a re-analysis of the deposited data

Results flagged for a closer look

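Of 60 groups of rats checked (4 members in 15 groups), 5 held 1 rat far from the others of its group by Dixon's test; chance alone gives about 1 in 20. Rat 5F140 of Cadmium at day 5 had a signal of 10407 for Hba-a1 with Hba-a2, against 5729 to 6901 in the other 5 rats. Rat 1F106 of Saline at day 5 had 9415 for the same genes, against 5552 to 6413 in the other 4. These rats had GAPDH 3'/5' ratios of 2.74 and 2.99, the highest of all 89.

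For Hba-a3, rat 6F150 of Doxorubicin at day 5 had 12.1 against 34.3 to 46.9, and rat 1M4 of Saline at day 5 had 751 against 443 to 509. For Alas2, rat 3F119 of Cisplatin at day 1 had 89.1 against 122.3 to 137.2. The treatment text of rat 1M4 is absent from its labels.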

How the results depend on the processing

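No paired analysis was possible because every animal was measured once and its code ties it to no other animal. The members' differences stayed within 1 SD of the reported value in 671 of 696 alternatives and in all 572 that left out 1 rat; the cause of the other 25 was not tested beyond the settings named. With a constant of 64, Doxorubicin at day 5 gave log2 differences of -5.23 (Hbb), -5.36 (Hba-a1 with Hba-a2), -2.62 (Hba-a3) and -1.60 (Alas2); with 1, Alas2 gave -4.09. Without scaling, Tobramycin at day 1 gave -0.39 (Hbb) and -0.32 (Hba-a1 with Hba-a2), and Doxorubicin at day 1 -0.83 and -0.61. Against Naive rats, Alas2 at day 1 gave -0.87 (Gentamycin), -0.64 (Tobramycin), -0.76 (Cisplatin), -0.66 (Cadmium), -1.17 (Doxorubicin) and -0.91 (Valproic acid), and at day 5 -0.78, -0.23, -1.19, -0.60, -3.23 and -1.02 in that order. Other probe sets of Hba-a1 with Hba-a2 gave -6.32 (Doxorubicin), -0.48 (Gentamycin), -0.67 (Cisplatin) and -0.61 (Valproic acid) at day 5. In control rats alone Hba-a1 with Hba-a2 and Alas2 had r = 0.241, no longer past the limit. The share of genes passing limma at day 1 of Doxorubicin, 0.0526%, became 0.0876% with a constant of 64, 0.193% with array weights, 0.0175% against Naive rats, 0.0963% with the GAPDH ratio as covariate and 0.035% to 0.0613% with 1 rat left out. At day 5 the share of 0.403% became 0.0701% without scaling, 0.21% with no sex term, 0.201% without the 5 rats of doubtful treatment text, 1.32% against Naive rats, 1.35% with Naive joined to Saline, 0.184% without the 4 rats of high GAPDH ratio and 0.158% in a fit on these groups only. With 1 rat left out it ran from 0.21% (Doxorubicin 6M50 or Saline 1F106) to 0.657% (Doxorubicin 6F149), and was 0.263% without Doxorubicin 6M49. The share called by sex, 64.2%, became 34.4% without scaling and 23.6% in the 18 control rats. Alox15 lost its call (limma) with a constant of 64 (adjusted p = 0.0680) and without the 4 rats of high GAPDH ratio (limma adjusted p = 0.0815). Without scaling, Csf1r (limma adjusted p = 0.682) and Ccng1 (limma adjusted p = 0.708) lost theirs. The settings without those 4 rats, and the sex, relation and likeness values without the Doxorubicin rats of day 5, were added after seeing the data.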
